A study of Mus musculus with 10 samples.

Results

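The genes described here encode complexes II to V of the mitochondrial respiratory chain, with cytochrome c. They were chosen by name: protein-coding genes for the succinate dehydrogenase subunits, cytochrome c1 and cytochrome c, all symbols starting with Uqcr, Atp5 or Cox4i, the Cox5 to Cox8 series, and 6 genes of mitochondrial DNA. Cox7a1, Cox8b and Cox6a2 were left out by that rule. It gave 52 genes of 52636 identifiers in the table, 46 nuclear and 6 mitochondrial, and 8 processed pseudogenes with matching symbols were not counted. The tissue was inguinal white fat, which lies under the skin, with 5 control and 5 knockout libraries. All mice were C57BL/6, 6 months old, on a 65% high-fat diet and homozygous for the floxed Tcf7l2 allele (F/F), although the genotype label calls the controls wild type. The knockouts carried Adp-Cre in addition, a recombinase directed to fat, so an effect of Cre and of the deletion cannot be told apart. The diet lasted 16 weeks by the diet label, 12 weeks by the sample descriptions and 4 months by the treatment protocol, and no group on another diet is analysed here.

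Complex II passes electrons from succinate to ubiquinone, complex III passes them on to cytochrome c, and complex IV, cytochrome c oxidase, hands them to oxygen. Complexes III and IV pump protons, and complex V, the ATP synthase, uses the resulting gradient to make ATP. Complex II is encoded in the nucleus alone, while the catalytic cores of complexes III and IV and the proton channel of complex V hold subunits made from mitochondrial DNA. White fat cells carry fewer mitochondria than brown fat cells, and their respiratory capacity is commonly studied in obesity.

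Total counts ran from 14032866 to 17782073 per library. Tcf7l2, the deleted gene, spanned 9.16 to 11.4 CPM (counts scaled by library size and TMM factors) among controls and 5.57 to 6.20 CPM among knockouts, so every library followed its label. The labelled tissue was checked with 15 mature adipocyte markers, which summed to between 35557.7 and 42792.2 CPM per control and between 35933.1 and 48569.6 CPM per knockout. The labels number the libraries 1 to 5 in controls and 6 to 10 in knockouts, so the genotype cannot be told apart from handling that followed this order. They do not say in words that each library came from a separate mouse, and p-values may then measure only technical spread. Each title does carry a further number of its own, left unexplained, and library pairs within a group differed beyond counting noise (chi-square per degree of freedom 7.28 to 29.7).

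Of the 6 mitochondrial members, 4 carried almost no counts, and 3 of these have exact copies in the nuclear genome. The start of mt-Co2, which encodes a copper-binding subunit of complex IV, is printed beside 2 annotated nuclear pseudogenes from the GENCODE M21 transcripts on GRCm38, with bases that differ from mt-Co2 in capitals. The stretches are bases 1 to 90 of each gene, 5′ to 3′.
mt-Co2: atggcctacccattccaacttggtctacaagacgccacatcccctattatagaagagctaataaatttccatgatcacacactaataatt
Gm28661: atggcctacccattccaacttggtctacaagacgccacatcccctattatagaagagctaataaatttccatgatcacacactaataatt
Gm13341: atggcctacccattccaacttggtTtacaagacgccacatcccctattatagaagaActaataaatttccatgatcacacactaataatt
Gm28661 (chr1:24614885-24615565, minus strand) was identical to mt-Co2 (mitochondrial DNA, 7013 to 7696) over all 681 bases compared. Gm13341, on chromosome 2, differed at 2 of the 90 bases shown. The pseudogene Gm10925 (chr1:24613974-24614651) was likewise identical to mt-Atp6 over 678 bases, and Gm28437 (chr1:24613189-24613971) to mt-Co3 over 783 bases. A read from these 3 genes therefore matches a place on chromosome 1 equally well.

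The share of 50-base stretches of a transcript that also occur in a transcript of another gene was 100% for mt-Co2, 99.5% for mt-Atp6, 99.9% for mt-Co3, 51.1% for mt-Co1 and 0% for mt-Cytb. Counts per library were 11 to 26 for mt-Co2, 5 to 12 for mt-Atp6 and 16 to 52 for mt-Co3. In contrast, mt-Co1 had 158789 to 324932 counts and mt-Cytb 18630 to 41408. The copies on chromosome 1 were low too, with 19 to 42 counts for Gm28661, 11 to 31 for Gm10925 and 20 to 63 for Gm28437. The handling of reads with several matches is not stated in the labels. mt-Atp8 had 0 to 8 counts although 0% of its stretches occur in another annotated transcript. It starts in the 230 bases between mt-Co2 and mt-Atp6 and runs into mt-Atp6, which overlaps 21.1% of its exonic bases. The copies of mt-Co2 and mt-Atp6 on chromosome 1 are 233 bases apart with no annotated gene between them. Genome sequence was not used here, so a copy of mt-Atp8 at that place was not looked for. The values of mt-Co2, mt-Co3, mt-Atp6 and mt-Atp8 are therefore not read as transcript levels.

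**Figure D1:**
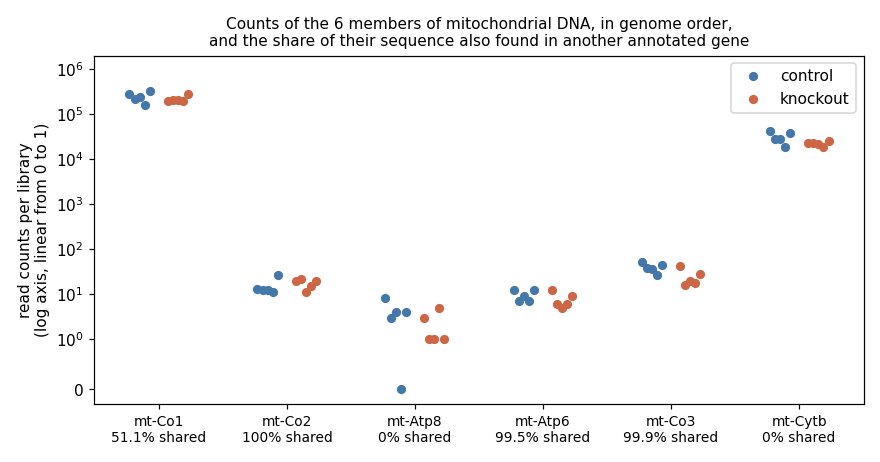
Read counts per library (log axis, linear from 0 to 1) of the 6 members of mitochondrial DNA in genome order, with 1 point per library; the label gives the percent of 50-base stretches shared with another annotated gene. mt-Co1 and mt-Cytb have at least 18630 counts in every library, and the 4 genes between them reach at most 52.

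The 2 mitochondrial members with usable counts did not pass the test. mt-Cytb, which encodes the cytochrome b core of complex III, was at 2464.6, 1811.0, 1693.3, 1267.5 and 2223.7 CPM in control 1 to 5 and at 1311.5, 1401.3, 1434.9, 1236.5 and 1731.3 CPM in knockout 1 to 5. Control 4 lay among the knockouts, and the other controls reached higher than any knockout except for knockout 5, which passed control 3. The log2 fold change of mt-Cytb, knockout over control, was -0.41 (SE 0.16) and had an adjusted p of 0.095 (edgeR quasi-likelihood test, Benjamini-Hochberg over all tested genes). Without control 4 mt-Cytb passed, at -0.52 (edgeR adjusted p = 0.041). It did not pass without control 1, at -0.30 (edgeR adjusted p = 0.24), nor with offsets for length and GC content, at -0.21 (edgeR adjusted p = 0.46). mt-Co1, the catalytic subunit of complex IV, was at 14944.0 ± 3103.4 CPM in controls and 13931.3 ± 2811.9 CPM in knockouts (SD, n = 5 each), and the groups overlapped almost fully (log2 fold change -0.10, edgeR adjusted p = 0.70, and 0.061 with the offsets). All genes of mitochondrial DNA together took 3.93 ± 0.673% of the counts in controls and 3.46 ± 0.372% in knockouts (SD, n = 5 each, two-sided exact permutation p = 0.206, where 0.0079 is the smallest p possible). Mitochondrial rRNA, in libraries depleted of rRNA, took 1.75% and 1.55% of the counts, and without it the shares were 2.22 ± 0.433% and 1.94 ± 0.309% (SD, n = 5 each, exact permutation p = 0.25).

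Of the 43 nuclear members that passed the filter on low counts, 5 rose in the knockout, 0 fell and 38 did not pass. The 5 were Uqcrq of complex III, Cox7a2l, listed here with complex IV, and Atp5g1, Atp5mpl and Atp5o of complex V. A member was called at an adjusted p below 0.05 over all 15927 tested genes, of which 5.84% were called higher, 7.05% lower and 12.9% in either direction. The 5 calls are 10.6% of the 47 tested members, all of them higher. At an unadjusted p below 0.05 there were 20 of 43 nuclear members, all with positive log2 fold changes, against 4930 of 15927 tested genes, 2362 of them positive. DESeq2 called 9 members (16.8% of all genes) and limma-voom 2 (10.3% of all genes). Without the filter on low counts edgeR called 6 (5.82% of all genes), and with offsets for length and GC content 5 (10.1%), of which 2 were among the 5 named. The 5 differences were small, about 1.2-fold, and the calls changed with the libraries included. The number of called members was 0 without control 1 or 2 or knockout 5, where 3.49%, 3.33% and 5.45% of all genes were called. It was 1 without control 4 (mt-Cytb, lower, with 5.61% of all genes called) and 1 without knockout 2 (6.17%). Leaving out control 3 gave 4 of the 5 (10.6% of all genes) and leaving out knockout 3 gave 3 of them (9.13%). Leaving out control 5 gave 3 of them and Cycs (19.1%). Leaving out knockout 1 gave 3 of them, Cycs and mt-Co3, the last lower (14.1%). Without knockout 4 there were 11 calls, the 5 among them, with 10.3% of all genes called.

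The nuclear members leaned the same way as a list, by a small amount. Their median log2 fold change was 0.16, against 0.00018 over all tested genes and 0.024 over tested protein-coding genes, and 38 of 43 were above 0, against 7966 of all 15927 tested genes. Without Atp5s, Cox7a2l and Cycs, which are not structural subunits of a complex, the median over 40 genes was 0.15. Values of 3 members did not overlap between the groups, all higher in the knockout (Cox7a2l, Atp5o and Atp5s), where 4.55% of all tested genes did the same and 4.45% had no overlap in the lower direction. These are descriptions of the list and carry no test.

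**Figure D2:**
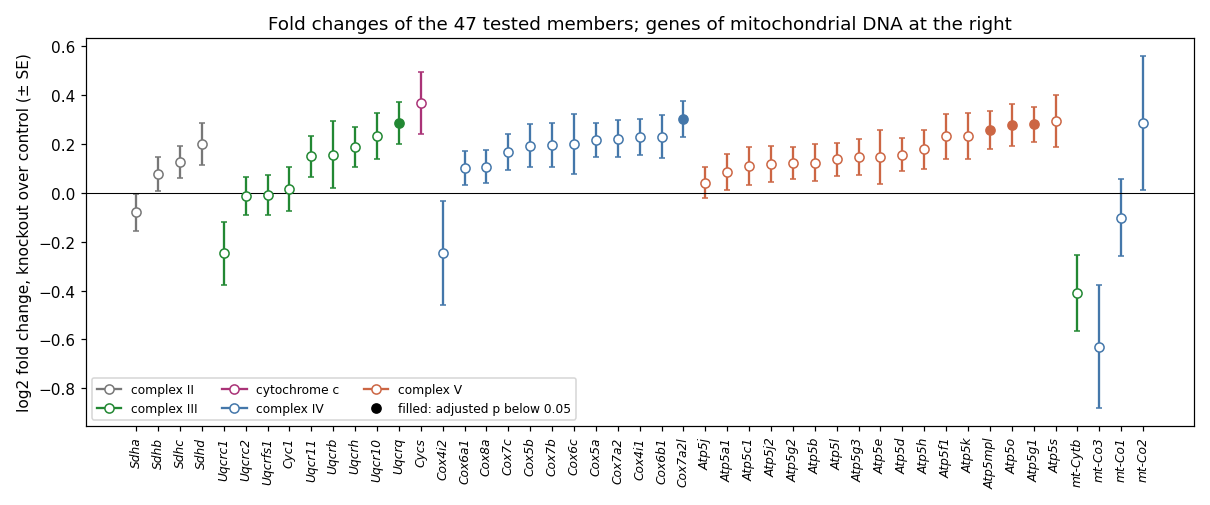
Log2 fold change, knockout over control, with its SE for the 47 tested members, coloured by complex, with genes of mitochondrial DNA at the right; filled points have an adjusted p below 0.05. All 17 complex V genes lie above 0, and the 5 filled points lie between 0.26 and 0.30.

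In complex II, 0 of 4 subunits passed (median log2 fold change 0.10). Sdhd, a membrane anchor subunit and the member of smallest p there, was at 130.5, 124.5, 135, 127 and 118 CPM in control 1 to 5 and at 146, 171, 139, 118 and 155 CPM in knockout 1 to 5. Knockout 4 was as low as the lowest control while the other knockouts were above all controls, and Sdhd did not pass (log2 fold change 0.20, SE 0.086, edgeR adjusted p = 0.14). Sdha, the flavoprotein that oxidises succinate, was at 414 ± 23.4 CPM in controls and 392 ± 40.1 CPM in knockouts (SD, n = 5 each). The iron-sulfur subunit Sdhb and the anchor Sdhc had log2 fold changes of 0.077 and 0.12.

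In complex III, 1 of 9 nuclear members rose. Uqcrq (ENSMUSG00000044894, chr11:53427922-53430831, minus strand), a small subunit that binds near cytochrome b, was at 60.65, 62.1, 69.0, 56.5 and 61.5 CPM in control 1 to 5. In knockout 1 to 5 it was at 77.2, 80.9, 67.6, 64.45 and 87.6 CPM. Knockouts 3 and 4 fell below control 3, and the other 3 knockouts were above every control. Its log2 fold change was 0.29 (SE 0.086, edgeR adjusted p = 0.046), and the call held in 3 of 10 fits that left out a library, with control 3 or either of knockouts 3 and 4 absent (edgeR adjusted p at most 0.11 in the others). None of its 50-base stretches occurs in another annotated gene. The other small subunits Uqcr10, Uqcr11, Uqcrb and Uqcrh had log2 fold changes of 0.23, 0.15, 0.16 and 0.19 without passing. The large core protein Uqcrc1 was the lowest nuclear member at -0.25 (edgeR adjusted p = 0.22). Its values split the controls, with 281 to 298 CPM in controls 1 to 3 but 186 and 203 CPM in controls 4 and 5, against 194 to 245 CPM in the knockouts. The second core protein Uqcrc2, the Rieske iron-sulfur protein Uqcrfs1 and cytochrome c1 (Cyc1) stood between -0.013 and 0.016.

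Cytochrome c, the mobile carrier between complexes III and IV, had the largest positive log2 fold change of the members. Cycs was at 150, 163, 172, 136 and 182.5 CPM in control 1 to 5 and at 171, 225, 186, 179.5 and 276 CPM in knockout 1 to 5. Control 5 exceeded knockouts 1 and 4, and knockout 5 stood above all other libraries. The difference of 0.37 (SE 0.13) did not pass (edgeR adjusted p = 0.071), and 28.5% of its 50-base stretches recur in other genes. Cycs was called higher by DESeq2, and by edgeR with no filter, with the length and GC offsets, and without control 5 or knockout 1.

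In complex IV, 1 of 12 tested nuclear members rose and 11 had positive log2 fold changes, with a median of 0.20. Cox7a2l (ENSMUSG00000024248, chr17:83501918-83517330, minus strand) encodes a protein related to Cox7a2 that has been described as a link between complexes IV and III. Whether it acts so in this strain was not examined. Cox7a2l was at 122, 131, 132, 129 and 147 CPM in control 1 to 5 and at 153, 151, 154, 170 and 188 CPM in knockout 1 to 5. Every knockout was above every control, the nearest being control 5 at 146.9 and knockout 2 at 151.0 CPM. Its log2 fold change of 0.30 (SE 0.074, edgeR adjusted p = 0.024) kept its call in 6 of 10 fits that left out a library and was lost without control 1, 2 or 4 or knockout 5 (adjusted p up to 0.072). Of its 50-base stretches 17.7% occur in the pseudogene Gm6969, which had 5 to 33 counts per library.

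The other nuclear complex IV subunits are small proteins around the mitochondrial core, and 0 of 11 tested passed. Cox4i1, the common form of the regulatory subunit 4, was at 373 ± 12.3 CPM in controls and 437 ± 47.2 CPM in knockouts (SD, n = 5 each). Its log2 fold change of 0.23 had an edgeR adjusted p of 0.063. Cox5a, which lies on the matrix side, was at 33.1 to 41.3 CPM and 39.7 to 46.3 CPM, and only knockout 4 lay below a control, control 2 (0.22, edgeR adjusted p = 0.056). Cox7a2 stood at 0.22, Cox6b1 at 0.23, Cox6c and Cox7b at 0.20, Cox5b at 0.19 and Cox7c at 0.17, while Cox6a1 and Cox8a stood at 0.10 and 0.11. Cox4i2, the form of subunit 4 found in lung and in hypoxic cells, was low, spanning 1.66 to 3.04 CPM over the controls and 1.64 to 2.79 CPM over the knockouts (-0.25, edgeR adjusted p = 0.46). The 3 forms known from testis were too low to test. Cox6b2 had 2 to 6 counts per library, and Cox7b2 and Cox8c had 0 in all 10, which allows up to 0.172 to 0.205 CPM in a library by counting error alone (3 counts).

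In complex V, 3 of 17 members rose and all 17 had positive log2 fold changes, from 0.041 for Atp5j to 0.29 for Atp5s, with a median of 0.15. Atp5g1 (ENSMUSG00000006057, chr11:96068852-96075670, minus strand) encodes a form of subunit c, which builds the rotating ring. It was at 40.3, 36.2, 42.6, 39.9 and 36.8 CPM in control 1 to 5 and at 51.0, 48.9, 47.4, 41.0 and 49.5 CPM in knockout 1 to 5. Knockout 4 fell below control 3, and the other 4 knockouts were above all controls. The log2 fold change of Atp5g1 was 0.28 (SE 0.071, edgeR adjusted p = 0.026), called in 5 of 10 fits that left out a library and lost without control 1, 2 or 4 or knockout 2 or 5 (adjusted p up to 0.076). Of its 50-base stretches 11.6% recur in 366 other genes, among them Gm10039, which had 0 to 5 counts per library.

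Atp5mpl (ENSMUSG00000021290, chr12:111961375-111966977, minus strand), a small protein attached to the membrane part of the synthase, was at 55.1, 56.0, 63.8, 56.2 and 60.7 CPM in control 1 to 5. In knockout 1 to 5 it was at 71.9, 74.8, 65.0, 59.5 and 77.6 CPM. Again knockout 4 lay within the control range and the rest above it (log2 fold change 0.26, SE 0.077, edgeR adjusted p = 0.046, called only without control 3, control 5 or knockout 4 among 10 fits that left out a library, with adjusted p up to 0.12 in the others). Atp5o (ENSMUSG00000022956, chr16:91925214-91931687, minus strand), the stalk protein that gives the synthase its oligomycin sensitivity, was at 191, 197, 199, 184 and 183 CPM in control 1 to 5. In knockout 1 to 5 it was at 218, 262, 210, 199.1 and 268 CPM. The groups touched, since control 3 was at 199.0 CPM and knockout 4 at 199.1 CPM. Its log2 fold change of 0.28 (SE 0.084, edgeR adjusted p = 0.048) was called in 2 of 10 such fits, without knockout 1 or knockout 4 (adjusted p up to 0.11 in the others). Other annotated gene models cover 47.9% of its exonic bases: another entry also named Atp5o and the antisense D430001F17Rik and Gm15976. In addition, 50.3% of its 50-base stretches occur in 3 other genes, among them Gm5436, which had 0 to 7 counts per library.

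**Figure D3:**
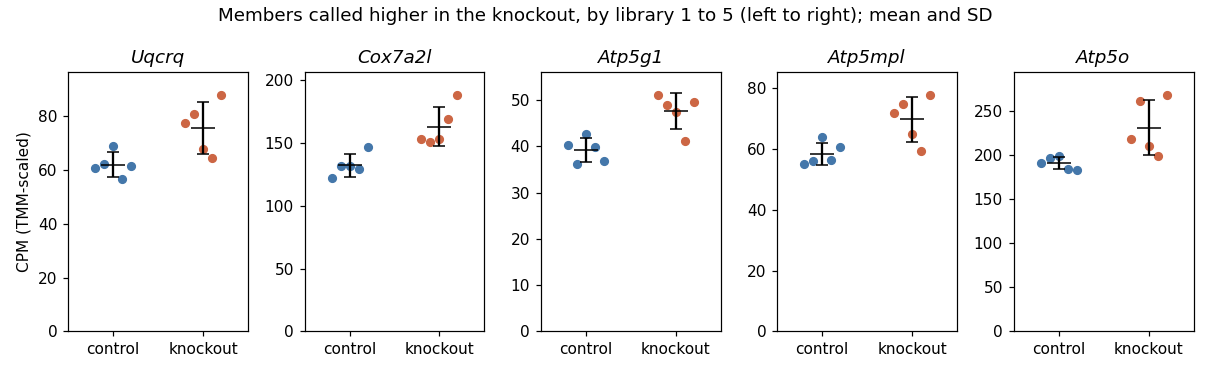
TMM-scaled CPM of the 5 members called higher in the knockout, with libraries 1 to 5 from left to right in each group and the mean with its SD in black. Knockout 4 is the lowest knockout for Uqcrq, Atp5g1, Atp5mpl and Atp5o, and every knockout is above every control for Cox7a2l and, barely, Atp5o.

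The alpha and beta subunits of the synthase were the most strongly counted nuclear members and did not pass. Atp5b, the catalytic beta subunit, had a log2 fold change of 0.12 (SE 0.076, edgeR adjusted p = 0.29), and its partner Atp5a1 one of 0.085 (SE 0.074, edgeR adjusted p = 0.46). Atp5s, a coupling factor that is not part of the core enzyme, was at 6.65 ± 0.631 and 8.16 ± 0.730 CPM (SD, n = 5 each) with no overlap between groups, but did not pass (edgeR adjusted p = 0.084). The stalk and membrane genes Atp5f1, Atp5h, Atp5k and Atp5l had log2 fold changes of 0.23, 0.18, 0.23 and 0.14.

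Levels of different genes were compared as CPM per kilobase of exonic sequence in the controls. mt-Co1 was at 9672.5 ± 2008.6 and mt-Cytb at 1653.9 ± 408.6 (SD, n = 5), both far above the nuclear members. As 51.1% of the 50-base stretches of mt-Co1 and 0% of those of mt-Cytb occur in other genes, these levels are not compared with each other. Among the nuclear members, Cox8a led at 416 ± 29.1, then Atp5b at 372 ± 20.5, Cox6b1 at 350 ± 27.3 and Atp5a1 at 309 ± 13.2, so that Atp5b and Cox6b1 differed by less than the SD of Cox6b1. With the length of the longest coding transcript instead, Atp5b led at 823 and Cox8a followed Cox4i1, at 469 and 488. Cox4i2 and Atp5s were lowest among the tested nuclear members, at 3.33 and 3.26 CPM per kilobase of exonic sequence. Within a group the nuclear members had a median coefficient of variation of 8.80% against 12.4% over all tested genes. Members and all tested genes were not matched for level, so this difference is not read as a trait of the members. Cox4i2, with a median of 41 counts, was at 22.3%.

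Some complexes can be built with alternative forms of a subunit, and 4 such pairs were compared as a log2 ratio of CPM within each library. The ratio of Atp5g1 to Atp5g2, which encode the same mature subunit c behind different targeting sequences, was 0.31 ± 0.095 in controls and 0.47 ± 0.074 in knockouts (SD, n = 5 each). It was higher in the knockout by 0.16, with controls at 0.16 to 0.38 (at most 0.375) and knockouts from 0.378 up (two-sided exact permutation p = 0.0079, the smallest possible, adjusted over the 4 pairs 0.032). Leaving out any control or knockout 3 gave adjusted exact permutation p of 0.0635 to 0.095. The share of 50-base stretches also found in other genes was 11.6% for Atp5g1 and 14.8% for Atp5g2. The third subunit c gene, Atp5g3, kept nearly the same ratio to Atp5g2, 2.42 in controls and 2.44 in knockouts (exact permutation p = 0.71). Cox7a2l to Cox7a2 differed by 0.083 (exact permutation p = 0.43, adjusted 0.57) and Cox4i2 to Cox4i1 by -0.45 (exact permutation p = 0.13, adjusted 0.27), both within the spread between libraries.

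High and low values were unevenly spread over the libraries. Of the 43 tested nuclear members, 29 were highest in knockout 5 and 10 in knockout 2, while 21 were lowest in control 4 and 8 in knockout 4. The median deviation from the gene mean (log2 CPM) was 0.24 in knockout 5, 0.17 in knockout 2, 0.032 in knockout 1, 0.0076 in knockout 3 and -0.075 in knockout 4. In control 1 to 5 it was -0.075, -0.068, 0.0030, -0.17 and -0.080. Knockout 4 thus sat at the level of controls 1, 2 and 5, and control 3 at that of knockout 3. Knockout 5 also held the highest summed mature adipocyte markers and control 4 the lowest, 48569.6 and 35557.7 CPM. Fabp4 and Lpl, at 17961.8 and 11042.5 CPM, made up most of the sum in knockout 5, where both peaked. Other markers peaked elsewhere, such as Adipoq in control 5 and Plin1 in control 1, so the sum does not stand for every marker. The part of adipocytes in the result was not tested, and in tissue RNA a change in the number of cells and in RNA per cell cannot be told apart.

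A measure of library content moved with the groups. Transcripts of the sense-intronic and TEC classes, most of which lie in introns or are unspliced, had a mean log2 CPM of 1.08, 1.27, 0.73, 1.20 and 0.38 in control 1 to 5 over the genes that passed the filter. In knockout 1 to 5 it was 0.44, 0.22, 0.46, 0.36 and 0.056. Controls 1 to 4 were above all knockouts, control 5 lay among them, and knockout 5, with the most nuclear members at their highest, had the lowest score. With this score as a covariate edgeR called 0 members, where 0.308% of all genes were called, and the median of the nuclear members was 0.050.

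**Figure D4:**
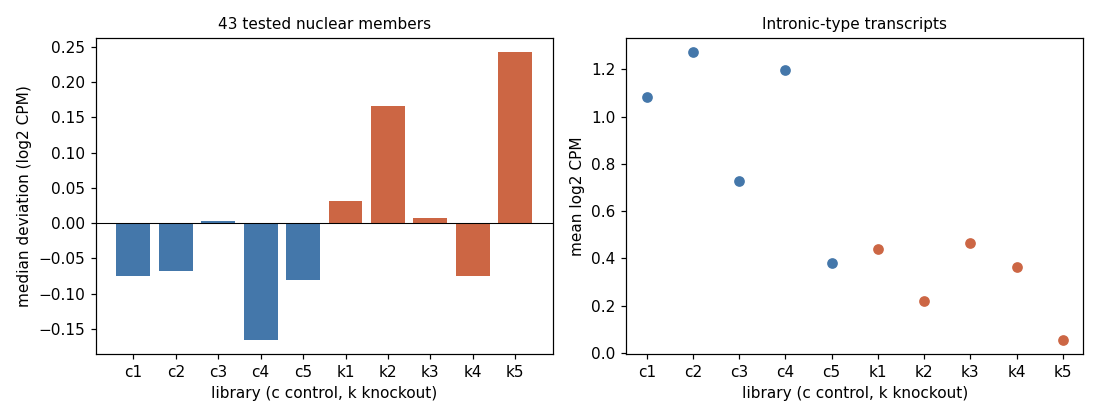
Left, the median deviation of the 43 tested nuclear members from their gene means (log2 CPM) in each library; right, the mean log2 CPM of the intronic-type transcripts. Knockouts 5 and 2 stand highest at the left, at 0.24 and 0.17, and lowest at the right, at 0.056 and 0.22.

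Marker genes of other cell types also differed between libraries. Over all tested genes, 5.84% were called higher and 7.05% lower. Of 13 T cell markers 6 were higher and of 10 B cell markers 4 were higher, with summed levels of 25.2 to 44.7 and 24.0 to 44.1 CPM over the controls and of 32.5 to 182 and 37.4 to 506 CPM over the knockouts. Without knockout 1 the knockouts reached at most 59.4 and 69.0 CPM. Knockout 1 held both maxima, at a median deviation of 0.032 for the nuclear members. Of 13 endothelial markers 11 were lower (summed level 1223.3 to 1573.0 and 1013.1 to 1172.0 CPM). Skeletal muscle, a tissue rich in mitochondria, gave uneven traces: the 14 markers summed to 556 CPM in control 5, 771 CPM in knockout 1 and 607 CPM in knockout 3, but to 25.3 to 125 CPM in the other 7 libraries, and 0 of 9 tested markers passed. Tnnc2, one of these markers, was at 0 in every library, but Ube2c overlaps 74% of its exonic bases, so the 0 is not read as absence. For the muscle sum, knockout 5 and knockout 2, with the highest nuclear members, were at 42.0 and 125 CPM. Of 10 brown adipocyte markers 3 were higher and 1 lower (84.4 to 116 CPM and 106 to 157 CPM). Their sum was highest in knockouts 2 and 5, at 157 and 156 CPM, and lowest in control 4, at 84.4 CPM. Control 1, at 116 CPM, passed knockouts 1 and 4. Of 15 mature adipocyte markers 0 were higher and 5 lower, and 0 of 12 macrophage markers passed (2903.6 to 3692.1 and 2935.3 to 3444.2 CPM). The 8 mammary and skin epithelial markers summed to 0.365 to 1.72 CPM. The part of these cells in the result was not tested.

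Assembly factors insert cofactors and subunits into the complexes. Of 33 tested assembly factors for complexes II to V, 4 rose, 0 fell and 29 did not pass, where 5.84% of all tested genes were called higher, and the median log2 fold change was 0.11. Sdhaf3, which protects the iron-sulfur subunit of complex II, rose from 12.2 ± 1.34 to 16.9 ± 2.45 CPM (SD, n = 5 each, edgeR adjusted p = 0.023), and Sdhaf2, which attaches its flavin, rose by 0.28 on the log2 scale (edgeR adjusted p = 0.034). Hccs, which adds heme to cytochrome c and c1, rose from 23.8 ± 1.17 to 28.8 ± 2.26 CPM (SD, n = 5 each, edgeR adjusted p = 0.026), and Pet100, a complex IV assembly factor, rose by 0.35 (edgeR adjusted p = 0.032). Values of Hccs and Sdhaf2 did not overlap between the groups, nor did those of Sco1, which was not called (edgeR adjusted p = 0.23). Among all tested genes, 4.55% had no overlap with the knockout higher. Values of Sdhaf3 and Pet100 overlapped between the groups, and Pcp2 overlaps 52.6% of the exonic bases of Pet100. Arhgap6 overlaps 25.9% of the exonic bases of Hccs. Of 6 tested genes for the exchange of ADP, ATP and phosphate across the membranes, 0 passed (median 0.14).

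Genes upstream of the respiratory chain did not pass. Among 19 genes for upkeep and transcription of mitochondrial DNA 0 were called (median 0.060), and Tfam, which packages that DNA and starts its transcription, stood at 31.1 ± 2.45 and 35.2 ± 1.70 CPM (SD, n = 5 each, edgeR adjusted p = 0.090). Among 12 nuclear regulators 0 were called (median -0.065). The coactivator gene Ppargc1a was at 5.67 ± 1.67 and 3.81 ± 0.917 CPM (SD, n = 5 each, edgeR adjusted p = 0.10), opposite in sign to Esrra, the orphan receptor it works with, at 23.0 ± 2.79 and 27.8 ± 2.46 CPM (SD, n = 5 each, edgeR adjusted p = 0.070). Nrf1, a factor that binds many respiratory promoters, stood at -0.038 (edgeR adjusted p = 0.80).

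Promoter sequences were at hand for 35 of the 46 nuclear members, from 250 bases before to 50 after the gene start in RefSeq on GRCm38.p6. The letters GCATGCGC, the core of the NRF-1 motif, were found on either strand in 22.9% of these members and in 3.94% of 17492 protein-coding genes. CCGGAAG, the core bound by GABP, was found in 34.3% and 12.9%, and AAGATGGCG, the YY1 motif, in 5.71% and 2.14%. Any 2 of the motifs can share only a few end bases, and 5 members hold both the NRF-1 and the GABP letters. Below are the 150 bases before the start of Cox7a2l, the called member of smallest p, in which none of the 3 was found, and of Cycs, the member with an NRF-1 match and the largest log2 fold change, with that match in capitals.
Cox7a2l: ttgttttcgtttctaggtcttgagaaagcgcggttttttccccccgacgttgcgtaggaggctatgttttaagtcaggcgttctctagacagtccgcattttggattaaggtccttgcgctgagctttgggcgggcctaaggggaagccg
Cycs: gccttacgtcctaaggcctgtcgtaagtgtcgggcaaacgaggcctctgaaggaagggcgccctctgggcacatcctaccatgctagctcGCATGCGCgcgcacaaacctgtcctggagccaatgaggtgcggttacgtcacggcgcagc
These are chr17:83514334-83514483 and chr6:50566570-50566719, both on the minus strand, and the Cycs match begins 60 bases before the start. The RefSeq start of Cox7a2l lies inside the GENCODE gene given above, whose annotated start is further upstream, and the bases before that second start were not searched. The 8 tested members with an NRF-1 match had a median log2 fold change of 0.13 and 0 calls, the 12 with a GABP match 0.15 and 0 calls, and the 18 with neither 0.19 and 3 calls (Cox7a2l, Atp5g1 and Atp5o). A match describes letters and does not show binding.

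**Figure D5:**
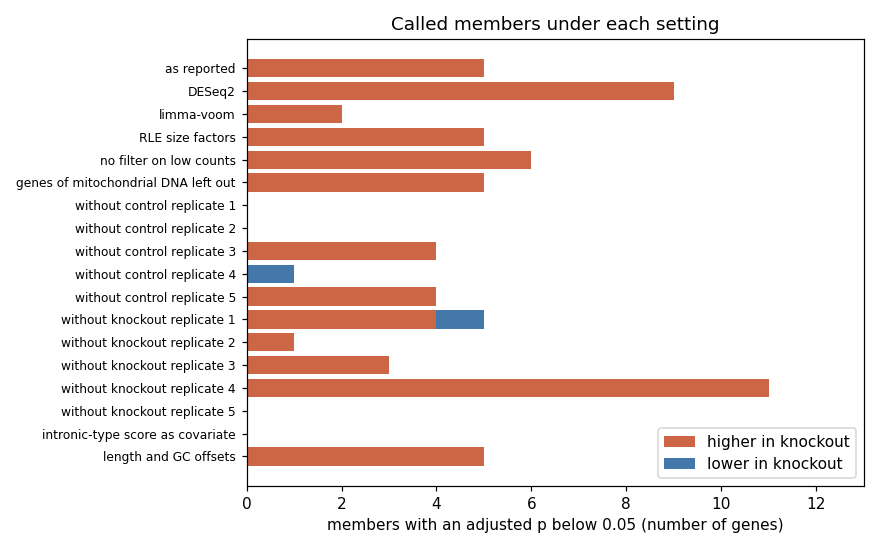
Number of members with an adjusted p below 0.05 under each setting, as stacked bars for members higher and lower in the knockout. The count is 5 as reported, 0 without control 1, control 2 or knockout 5, and 11 without knockout 4.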

How the data were processed

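Total RNA depleted of ribosomal RNA was sequenced with a strand-marking kit, per the labels' protocols. The authors deposited whole-number read counts per gene for 10 libraries in a single table, not normalized. Per the submitters' processing notes, STAR 2.5.2b, featureCounts 1.5.1, DESeq2 1.16.0 and GRCm38 were used. Nothing read here states the annotation release, strand setting, read length or handling of multiply matching reads. Symbols came from GENCODE M21 for 52489 of 52636 identifiers.

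Genes were filtered with filterByExpr by group and scaled with TMM. The groups, taken from the genotype label, entered edgeR 4.0.16 (R 4.3.3) as the single term of a quasi-likelihood fit (two-sided), with Benjamini-Hochberg adjustment over 15927 genes. SE is the log2 fold change divided by the square root of F. Log2 CPM used a prior count of 2. The fit was tested on simulated data. Shared sequence was counted over exact stretches of 50 bases (with 100 bases mt-Co1 shared 30.8%) between a member's longest coding transcript and all GENCODE M21 transcripts. Intervals and floors cover counting error only.

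Alternatives were DESeq2 1.42.0, limma 3.58.1 (voom), RLE factors, no filter, genes of mitochondrial DNA left out and each library left out. An intronic-type score as covariate and offsets for length and GC content were added after seeing the data. The members and lists were chosen with earlier results of these data known. Given by library were called members, mitochondrial members and, in a complex without a call, the member of smallest p; from other lists, called genes and Tfam, Ppargc1a, Nrf1 and Esrra were named. Other members named in the text were chosen after their values were seen.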

Additional observations from a re-analysis of the deposited data

Results flagged for a closer look

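Among 110 groups of 5 values examined (the tested nuclear members, the 6 mitochondrial members, Tcf7l2, the isoform ratios and the mitochondrial share), 8 held a library whose gap to its nearest neighbour took more than 0.71 of the group's range, and chance gives about 1 in 20. Knockout 5 was the high library for Cox6c (284.5 CPM, others 189 to 213), Uqcrb (230 CPM, others 142.5 to 164.5), Uqcrc2 (216 CPM, others 166 to 180) and Cox5b (192 CPM, others 141 to 153). It also had the largest share of counts from mitochondrial DNA among the knockouts, 4.10% against 3.19 to 3.45%. Control 4 was low for Sdha (374 CPM, others 419 to 433), and control 5 was low for Atp5l (45.0 CPM, others 49.2 to 50.2). mt-Co2 in control 5 was at 1.52 CPM against 0.738 to 0.774, which rests on 26 counts.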

How the results depend on the processing

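The count of called members, 5 as reported, was 9 with DESeq2, 2 with limma-voom and 0 with the intronic-type score, and it ranged from 0 to 11 over the fits that left out 1 library. It was 5 with RLE factors and without genes of mitochondrial DNA (12.8% and 12.9% of all genes called), and 6 with no filter (5.82%). Length and GC offsets gave 5 (10.1%), of which 2 (Atp5g1 and Cox7a2l) were among the 5 reported. The median of the nuclear members, 0.16, stayed positive in every setting run, from 0.12 to 0.20 when a library was left out and 0.050 with the score, where 28 of 43 were above 0. That of the 4 tested mitochondrial members, of which mt-Co2 and mt-Co3 are not read as levels, was -0.26. It was -0.60 with the score, -0.074 with the length and GC offsets and -0.36 to -0.17 when a library was left out. mt-Co1, not called in any setting, was at 0.061 with the offsets and 0.0041 without control 5. The difference in the Atp5g1 to Atp5g2 ratio, 0.16, ranged from 0.12 to 0.18 without a library. Its adjusted exact permutation p, 0.032, ranged from 0.032 to 0.095. mt-Co3, which rests on at most 52 counts, was called lower without knockout 1 (-0.85, edgeR adjusted p = 0.034). Under the alternatives run, no called value changed sign. The cause of these shifts was not tested. No paired analysis was possible because the labels give the groups no shared replicate numbers.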

Other observations

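The 3 subunit forms left out of the list, which are typical of muscle and brown fat, were low in both groups and did not pass. Cox8b was at 19.8 ± 5.03 CPM in controls and 18.5 ± 3.28 CPM in knockouts, Cox7a1 at 6.27 ± 0.807 and 6.53 ± 0.561 CPM, and Cox6a2 at 2.27 ± 0.845 and 2.94 ± 0.933 CPM (SD, n = 5 each; edgeR adjusted p = 0.72, 0.77 and 0.37).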
